A study of Mus musculus with 22 samples.

Results

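The prostaglandin synthesis and receptor genes described here are 10 genes of the mouse, taken by symbol from the 53379 rows of the deposited count table. They are the cyclooxygenases Ptgs1 and Ptgs2, the prostaglandin E2 (PGE2) synthases Ptges, Ptges2 and Ptges3, the PGE2 receptors Ptger1, Ptger2, Ptger3 and Ptger4, and Hpgd, which breaks prostaglandins down. All 10 passed the filter on low counts, among 40714 genes tested. The members' own counts ranged from 4 reads (Ptger2) to 7760 reads (Ptgs2) in a library.

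Prostaglandins are short-lived lipid signals made from arachidonic acid, which phospholipases and other lipases free from membranes. Cyclooxygenase turns arachidonic acid into an unstable intermediate, terminal synthases turn that into PGE2, and PGE2 acts on neighbouring cells through G protein-coupled receptors called EP receptors. In brain, Ptgs2 is an activity-dependent gene of excitatory neurons, while Ptgs1 is best known from microglia, and inhibitors of both enzymes have been studied in seizure models.

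The mRNAseq libraries came from the left hippocampus, contralateral to the injection, of adult male C57/BL6N mice 24 h after 70 nl of 20 mM kainate or 0.9% NaCl (sham) was injected into the cortex on the right. Only kainate mice with convulsive seizures entered the study, and 8 mice per treatment were pooled into 3 samples, 1 of 4 mice and 2 of 2 mice. Sorting by the neuronal nuclear protein NeuN split each pool into neuronal (NeuN+) and glial (NeuN–) nuclei, so that nuclear RNA was measured and a fraction holds several cell types. There were 3 kainate and 3 sham libraries of neurons, and 3 kainate and 2 sham libraries of glia, the latter numbered 1 and 3. The sources used here name no engineered allele in these mice.

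Library totals ran from 12058875 to 45428465 reads. The sort separated the fractions, as all 7 neuronal markers were higher in NeuN+ nuclei, and all 8 microglial, 6 astrocyte and 5 oligodendrocyte markers were lower there, at a false discovery rate (FDR) below 0.25 (edgeR quasi-likelihood test, Benjamini-Hochberg adjustment). The sham glia libraries stood far apart in their glial markers. The summed CPM (reads scaled to a common library total) of the microglial markers were 4174 in sham glia replicate 1 and 771 in replicate 3, and those of the oligodendrocyte markers were 36814 and 8319. The input was about 0.05 ng of RNA for kainate glia replicate 2 and for sham glia replicate 1, and 1 ng for the other libraries. Levels are given as CPM scaled by the TMM method, and fold changes are log2 values of kainate over sham or of NeuN+ over NeuN–, with their standard errors (SE).

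The first question was which of these genes differed between kainate and sham hippocampi in neurons. Ptgs2, Ptgs1, Hpgd, Ptger4 and Ptger2 were higher in all 3 kainate libraries than in any sham library, and no member lay the other way. Over all genes tested, 4.26% separated in that direction and 3.6% in the other. In the fit of 4 group means without a block, 0 of 10 members passed an FDR below 0.25, against 0.165% of all genes, while 4 members, against 1.46% of all genes, were higher at an unadjusted p below 0.05. With the replicate number as a block, 6 of 10 members were upregulated, against 3.19% of all genes. These were Ptgs1, Ptgs2, Ptger2, Ptger3, Ptger4 and Hpgd. In the same fit, 2 of 7 neuronal and 1 of 3 choroid plexus markers rose and 1 of 5 oligodendrocyte and 1 of 4 fibroblast markers fell, with 0 of them called without the block, and their part in these calls was not tested. The markers of dentate granule neurons, microglia and astrocytes, which moved as well, are given beside the genes. DESeq2's Wald test called Ptgs1, Ptgs2 and Hpgd higher, against 0.717% of all genes, and a fit of the neuron libraries alone called those 3 and Ptger4, against 1.07%. The median member difference was 1.00 on the log2 scale, and that of all genes tested was -0.015. The members were chosen with earlier results of these data known. The study itself listed Ptgs2, Ptgs1 and Hpgd as upregulated in neurons of this hippocampus, at an FDR below 0.25. The excess of members over the share of all genes is thus not independent support.

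**Figure D1:**
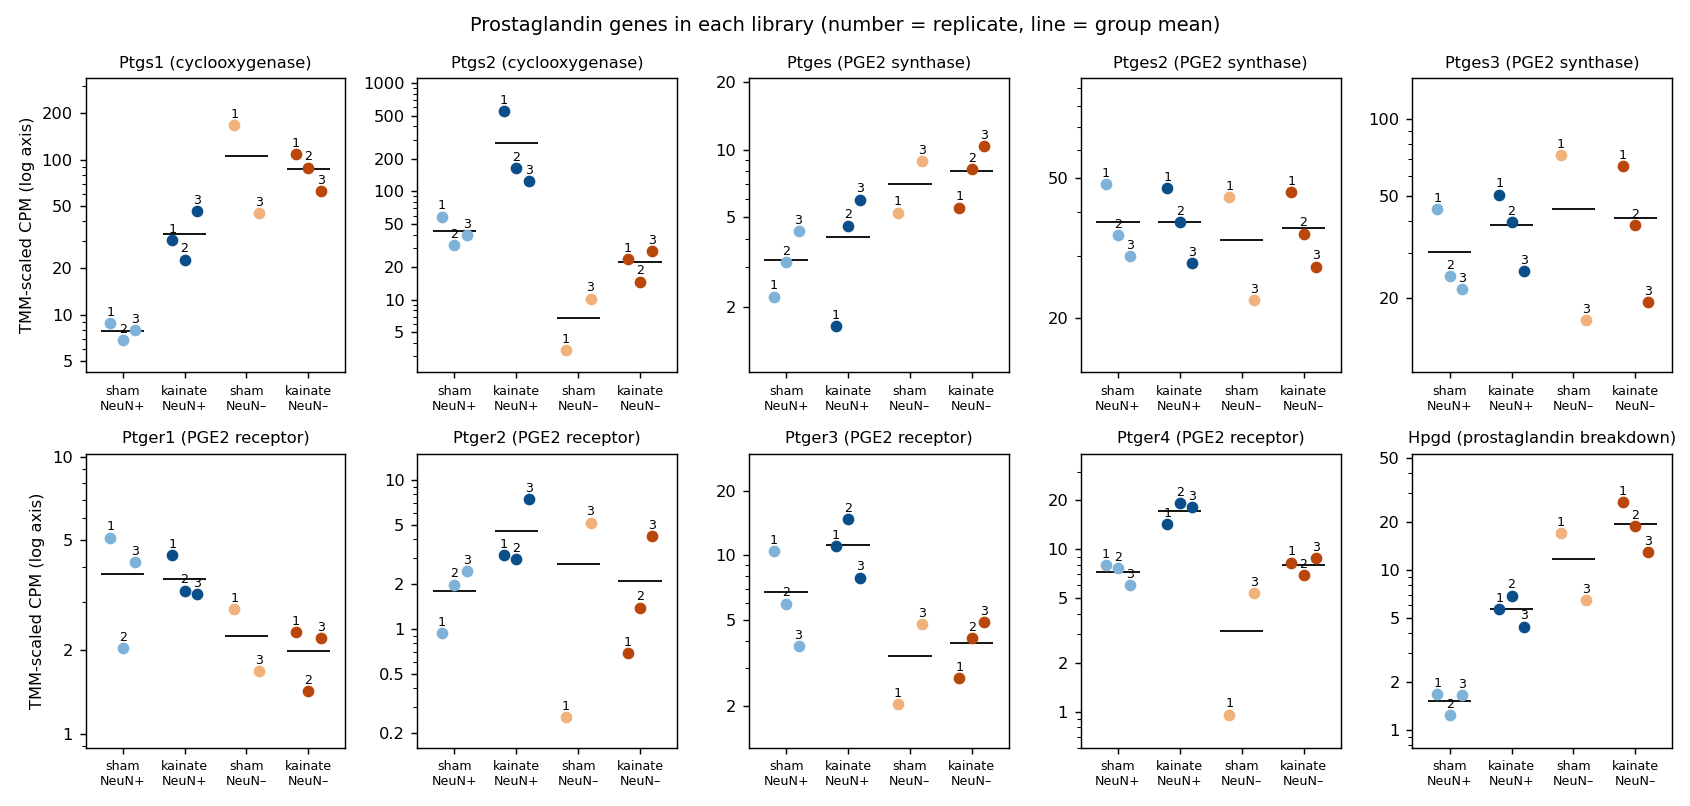
TMM-scaled CPM of each of the 10 genes (log axis) in sham and kainate NeuN+ and NeuN– libraries, where each point is 1 library labelled with its replicate number and the line is the group mean. In NeuN+ nuclei the 3 kainate points lie above the 3 sham points for Ptgs1, Ptgs2, Ptger2, Ptger4 and Hpgd, and the points of Ptges2 and Ptges3 overlap in all groups.

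Ptgs2, which encodes cyclooxygenase-2, lies on chromosome 1 at 150100031 to 150108227 on the plus strand of mm10. Its level in kainate neurons was 552, 163 and 124 CPM in replicates 1 to 3. In sham neurons it was 58.6, 31.8 and 39.4 CPM. The lowest kainate library thus lay above the highest sham library, and replicate 1 was the highest of its group under both treatments. The difference was 2.69 ± 0.59 (SE, 3 against 3 libraries), with an FDR of 0.255 without the block and 1.66e-11 with it, where the difference was 2.41. Compared by replicate number, the kainate library held 9.42, 5.13 and 3.15 times the CPM of its sham library. Without kainate neurons replicate 1, the difference was 1.73 with an FDR of 0.835. DESeq2's Wald test gave an FDR of 0.0011. Of 3 markers of dentate granule neurons, Calb1 and Dsp were lower in kainate neurons with the block (-1.16 and -1.005, FDR 7.13e-05 and 0.0132) and not without it, while Prox1 differed by -0.022 (FDR 1 in both fits). The 3 markers summed to 176 to 271 CPM in kainate neurons and to 262 to 378 CPM in sham neurons, and their part in the neuronal values was not tested.

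In glia, Ptgs2 was at 23.8, 14.7 and 28.1 CPM in the kainate libraries and at 3.45 and 10.3 CPM in the sham libraries. The kainate libraries again lay above both sham libraries. The neuronal markers were not absent from NeuN– nuclei. The 7 markers summed to 585 to 867 CPM in kainate glia and to 511 to 731 CPM in sham glia, beside 3081 to 6198 CPM in kainate neurons, and Rbfox3, which encodes NeuN, was at 37.4 ± 12.8 CPM (SD, n = 3) in kainate glia and at 220.5 ± 50.3 CPM in kainate neurons. The part of neuronal RNA in the glial Ptgs2 level was not tested. The difference was 1.69 ± 0.67 (SE, 3 against 2), with an FDR of 1 in edgeR's test without the block (unadjusted p = 0.0242) and 1.39e-06 with it. Without sham glia replicate 1 the difference was 1.14, and without replicate 3 it was 2.67 with an FDR of 0.236. In the latter fit the median of all genes stood at 0.76, and 2359 genes of 42640 were called higher. The neuronal and glial differences were 1.00 ± 0.84 (SE) apart, with a 95% interval of -0.80 to 2.80, so a difference between the cell types was not detectable for Ptgs2 at this sample size. In order of level, kainate neurons came first, then sham neurons, kainate glia and sham glia, and no library of one of these groups overlapped the next.

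The sequence upstream of Ptgs2 is shown with those of Ptgs1 and Hpgd, because these are the members with the smallest p for kainate in neurons. RefSeq promoters (GRCm38.p6) matched 9 of the 10 members by symbol, and the 250 bases before the transcription start were searched on both strands for 6 motifs. These were the cAMP response element TGACGTCA, its part TGACG, the AP-1 site TGANTCA, the E-box CACGTG, the C/EBP site TTNNGNAA and the TATA box TATAAA. The full element contains the TGACG part, so these searches overlap. Each sequence is given 5′ to 3′ with any motif in capitals, from chr1:150099781-150100030, chr2:36230176-36230425 and chr8:56294302-56294551, all on the plus strand.
Ptgs2: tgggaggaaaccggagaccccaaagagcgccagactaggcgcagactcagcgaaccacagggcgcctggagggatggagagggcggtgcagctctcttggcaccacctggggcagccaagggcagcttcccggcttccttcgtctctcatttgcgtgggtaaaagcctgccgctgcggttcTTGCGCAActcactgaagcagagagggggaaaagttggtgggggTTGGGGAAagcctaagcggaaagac
Ptgs1: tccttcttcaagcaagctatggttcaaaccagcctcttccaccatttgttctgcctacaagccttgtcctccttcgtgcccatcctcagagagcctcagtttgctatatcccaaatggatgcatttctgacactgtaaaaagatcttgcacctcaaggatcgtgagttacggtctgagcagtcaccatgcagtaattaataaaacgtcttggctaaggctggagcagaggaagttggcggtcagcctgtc
Hpgd: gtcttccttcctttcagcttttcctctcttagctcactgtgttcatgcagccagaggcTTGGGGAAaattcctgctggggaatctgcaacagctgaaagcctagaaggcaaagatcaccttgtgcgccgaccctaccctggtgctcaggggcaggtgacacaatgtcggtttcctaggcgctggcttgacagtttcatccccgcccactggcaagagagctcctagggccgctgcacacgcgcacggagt
In the Ptgs2 sequence, the capitals mark C/EBP sites that begin 69 and 25 bases before the start, of which the first, TTGCGCAA, reads the same on both strands. Hpgd held a C/EBP site 192 bases before its start, and Ptgs1 held none of the 6 motifs. Among all 32851 promoters in the table, 36.8% held a C/EBP site, 17.8% TGACG, 12.4% a TATA box, 6.75% an AP-1 site, 6.02% an E-box and 1.55% the full cAMP response element. These matches are a description of the letters in these windows. Bases outside them, including those after the annotated start, were not searched.

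Ptgs1, which encodes cyclooxygenase-1, lies on chromosome 2 at 36230426 to 36252272 on the plus strand. It was at 30.2, 22.7 and 46.8 CPM in kainate neurons and at 8.86, 6.83 and 7.96 CPM in sham neurons. The sham libraries lay close together, and each kainate library held at least 3.32 times the CPM of the sham library with its number. The difference was 2.08 ± 0.47 (SE), with an FDR of 0.282 without the block and 1.02e-09 with it. In a fit of the neuron libraries alone the FDR was 0.0415, and by DESeq2's Wald test it was 0.00513. In glia, Ptgs1 was at 108, 88.7 and 62.8 CPM after kainate and at 167 and 45.1 CPM in sham, so the kainate libraries lay between the sham libraries. The glial difference was -0.29 ± 0.50 (SE) with a 95% interval of -1.36 to 0.78, and it was 0.97 at the highest and -0.95 at the lowest over the alternatives.

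Ptgs1 was the member whose kainate effects in neurons and glia lay farthest apart. The difference between them was 2.37 ± 0.67 (SE), with an unadjusted p of 0.00351 in edgeR's test and an FDR of 1, where 0.00246% of all genes passed. With the replicate block it was 2.10 with an FDR of 6.91e-05, and Ptgs1 was then the only 1 of the 10 members called, against 1.94% of all genes. With the pool as a block, which pairs the fractions of the same mice, it was 1.94 with an FDR of 1. Over the alternatives the difference ran from 1.11 to 3.03 for Ptgs1 and from -1.70 to 2.97 for Ptger2. Without sham glia replicate 1, the effects of Ptger2 lay farther apart than those of Ptgs1.

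Hpgd encodes the dehydrogenase that begins the inactivation of PGE2, and lies on chromosome 8 at 56294585 to 56321043. It was at 5.69, 6.88 and 4.41 CPM in kainate neurons and at 1.68, 1.23 and 1.64 CPM in sham neurons. Both groups were narrow and did not overlap. The difference was 1.90 ± 0.45 (SE), with an FDR of 0.334 without the block, 1.21e-05 with it and 0.00995 by DESeq2's Wald test. In glia, Hpgd was at 26.4, 18.7 and 12.9 CPM after kainate and at 17.0 and 6.45 CPM in sham. The glial groups overlapped, and the difference of 0.72 ± 0.49 (SE) had an FDR of 1 without the block and 0.268 with it. It was 1.61 without sham glia replicate 1 and 0.17 without replicate 3. Hpgd and Ptgs1 had a Pearson correlation of 0.947 over the 11 libraries, which share their cell type and treatment groups.

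Because Ptgs1 and Hpgd are higher in glia than in neurons, the glial markers in NeuN+ libraries were set beside them. The 8 microglial markers summed to 74.7 to 87.2 CPM in kainate neurons and to 50.1 to 74.5 CPM in sham neurons, and the 6 astrocyte markers to 252 to 410 and to 170 to 234 CPM. Both sums were thus higher after kainate without overlap, for microglia only by 74.7 against 74.5 CPM. Even so, 0 of the 8 and 0 of the 6 markers were called by edgeR without the block (1 and 2 at an unadjusted p below 0.05, Csf1r, Gfap and Aqp4). With the block 2 and 4 rose, while 1 microglial and 2 astrocyte markers fell. No microglial or astrocyte marker was at 0 in any library. Of the microglial markers, the receptor genes Csf1r and P2ry12 went opposite ways, by 1.14 and -0.67 on the log2 scale. As a share of the microglial sum, Ptgs1 was at 11.9% to 13.6% in sham neurons, 30.3% to 53.7% in kainate neurons, 4.64% to 7.56% in kainate glia and 3.996% to 5.84% in sham glia. The corresponding share for Hpgd was 2.25% to 2.74% in sham neurons, 5.06% to 9.21% in kainate neurons, 0.407% to 0.836% in sham glia and 1.13% to 1.55% in kainate glia. It was thus higher after kainate without overlap in both fractions, and how many of all genes separate in this way was not counted. In glia, Hpgd itself overlapped, and 0 of the 8 microglial markers had a positive difference without the block (median -0.72). The share there moves with the markers as well as with Hpgd. In bulk nuclei, more cells of a type and more RNA per cell cannot be told apart. The part of microglia and astrocytes in the neuronal values was not tested.

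**Figure D2:**
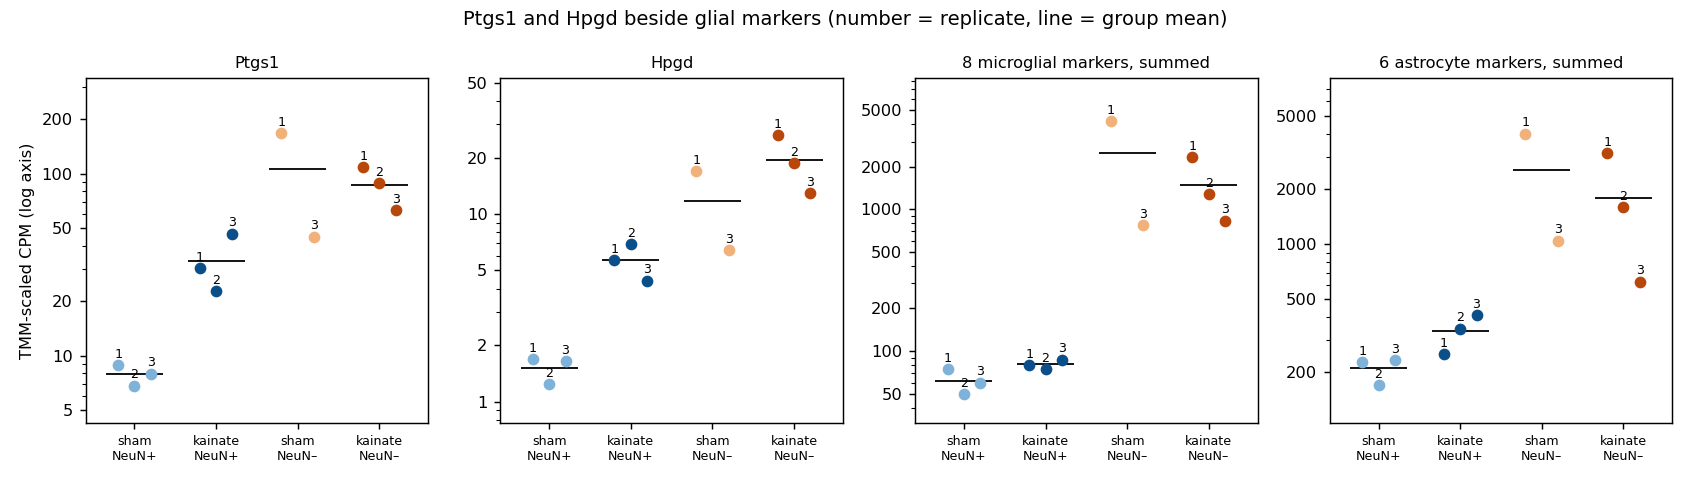
TMM-scaled CPM (log axis) of Ptgs1, Hpgd and the summed microglial and astrocyte markers in each library, where numbers are replicates and lines are group means. In NeuN+ nuclei, Ptgs1 and Hpgd lie 22.7 to 46.8 and 4.41 to 6.88 CPM after kainate, above all sham values, and the microglial sums of 74.7 to 87.2 and astrocyte sums of 252 to 410 also lie above the sham sums of 50.1 to 74.5 and 170 to 234.

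Of the PGE2 receptors, Ptger4 encodes EP4, which signals through cyclic AMP, and lies on chromosome 15 at 5206661 to 5244187 on the minus strand. It was at 14.2, 19.2 and 18.1 CPM in kainate neurons and at 7.99, 7.64 and 5.996 CPM in sham neurons. The groups were separate, and the kainate library held 1.78, 2.52 and 3.02 times the CPM of the sham library with its number. The difference was 1.26 ± 0.49 (SE), with an FDR of 1 without the block (unadjusted p = 0.0219, edgeR) and 0.00499 with it. In glia, Ptger4 was at 8.28, 6.89 and 8.80 CPM after kainate and at 0.959 and 5.36 CPM in sham. The glial difference was 1.33 ± 0.57 (SE), with an FDR of 1 without the block (unadjusted p = 0.0349, edgeR) and 0.00636 with it. It rested on sham glia replicate 1, a library of about 0.05 ng of RNA, since the difference was 0.60 without that library. Without replicate 3 it was 3.04, where the median of all genes stood at 0.76. Its exons share 15.3% of their bases with the pseudogene Gm15937 on the other strand, and reads of an unstranded kit cannot be told apart there.

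Ptger2 encodes EP2, which also signals through cyclic AMP. It was at 3.13, 2.96 and 7.43 CPM in kainate neurons and at 0.940, 1.98 and 2.45 CPM in sham neurons. The groups separated by a narrow margin, and the difference of 1.32 ± 0.88 (SE) had an FDR of 1 without the block and 0.0686 with it. Over the alternatives this difference ran from 0.75 to 1.61. In glia, the sham libraries at 0.256 and 5.16 CPM lay on either side of the kainate libraries at 0.690, 1.39 and 4.22 CPM. The lowest of these values rests on 4 reads.

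Ptger3 encodes EP3, which lowers cyclic AMP. It was at 11.03, 14.8 and 7.88 CPM in kainate neurons and at 10.5, 5.97 and 3.80 CPM in sham neurons, and the groups overlapped. The difference was 0.74 ± 0.49 (SE), with an FDR of 1 without the block and 0.184 with it, and the same-number ratios were 1.05, 2.47 and 2.07. In glia it was at 2.70 to 4.89 CPM after kainate and at 2.04 and 4.81 CPM in sham.

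Ptger1 encodes EP1, which acts through calcium. It was the lowest receptor per length in kainate neurons and in both glia groups, at 3.20 to 4.41 CPM in kainate neurons, 2.04 to 5.10 in sham neurons and 1.43 to 2.81 in glia. The kainate difference was -0.050 ± 0.50 (SE) in neurons, with a 95% interval of -1.13 to 1.03. The Ptger1 values are uncertain, because the kit did not mark strand and reads from the other strand cannot be told apart at this gene.

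The 3 PGE2 synthases did not pass the test for kainate in any fit, in neurons or in glia. Ptges, the inducible microsomal synthase, was at 1.64, 4.59 and 5.99 CPM in kainate neurons and at 2.22, 3.16 and 4.32 CPM in sham neurons, so the kainate values spanned the sham values. In glia it was at 5.52, 8.18 and 10.4 CPM after kainate and at 5.24 and 8.88 CPM in sham. Its difference was 0.33 with a 95% interval of -0.76 to 1.43 in neurons, and 0.19 with an interval of -1.03 to 1.40 in glia. Ptges2, a membrane-bound synthase, ran from 22.5 to 48.0 CPM over the 11 libraries, and its neuronal difference was 0.0054 with an interval of -0.78 to 0.79. Ptges3, a cytosolic synthase that is also the p23 co-chaperone, ran from 16.4 to 72.4 CPM, and its neuronal difference was 0.36 with an interval of -0.83 to 1.55. In the block fit, the intervals were -0.38 to 0.90 for Ptges, -0.39 to 0.40 for Ptges2 and -0.025 to 0.78 for Ptges3.

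In glia as a whole, 0 of 10 members were called for kainate in edgeR's fit without the block, against 0.101% of all genes. DESeq2's Wald test called 0 as well, and 2 members, Ptgs2 and Ptger4, were higher at an unadjusted p below 0.05, against 1.35% of all genes. With the block, Ptgs2 and Ptger4 were upregulated, against 2.93% of all genes. That fit rests on replicates 1 and 3, because kainate glia replicate 2 has no sham library of its number. In replicate 1 the sham library had about 0.05 ng of RNA and the kainate library 1 ng. Input and treatment cannot be told apart in that pair. With low input as a covariate and no block, the differences were 1.65 for Ptgs2 and 1.49 for Ptger4, and neither was called. Without both low-input libraries, which leaves 1 sham library, they were 1.36 and 0.69. Cell type markers moved in the block fit. All 3 markers of oligodendrocyte precursors fell, as did 3 of 5 oligodendrocyte, 3 of 6 astrocyte, 2 of 8 microglial, 1 of 3 dentate granule and 1 of 4 fibroblast markers, while 1 astrocyte, 1 of 7 neuronal and 2 of 3 choroid plexus markers rose. Without the block, 0 markers of these 8 lists were called. Their part in the calls for Ptgs2 and Ptger4 was not tested. Both members were also the only 2 of the 10 that separated kainate from sham in glia, in the direction in which 4.7% of all genes separated. The median member difference in glia was 0.15, beside 0.023 over all genes.

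**Figure D3:**
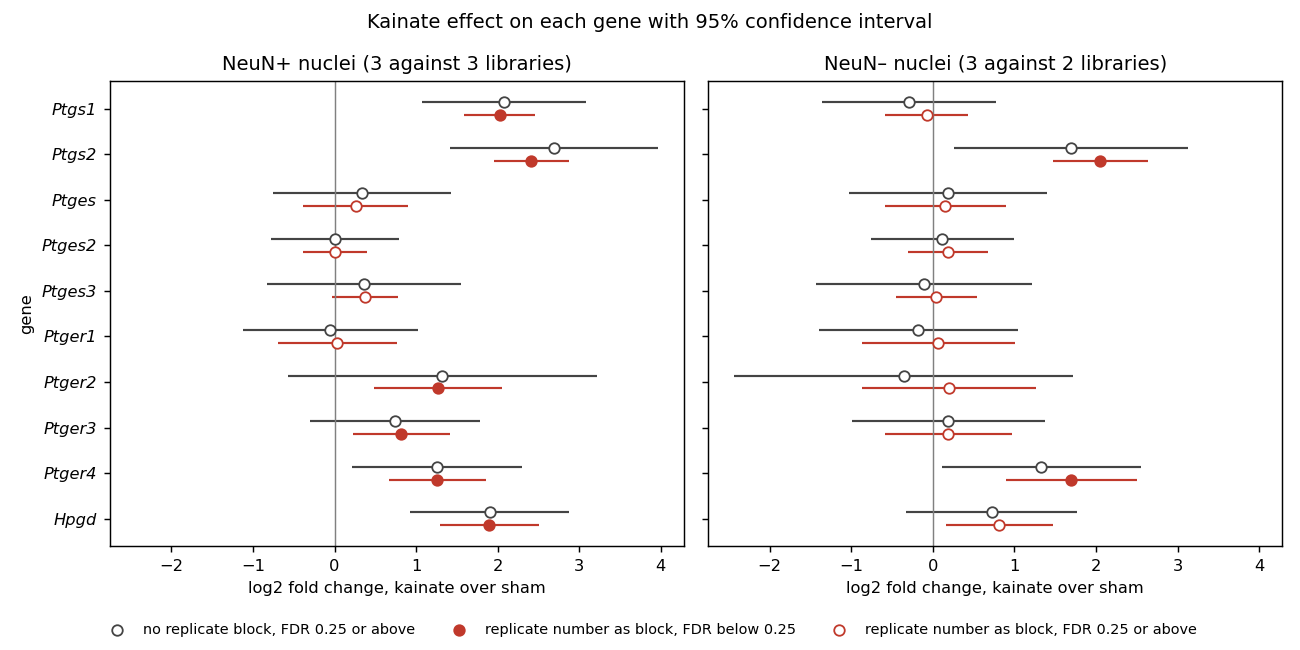
Log2 fold change of kainate over sham with its 95% confidence interval for each gene in NeuN+ (left) and NeuN– (right) nuclei, without a block (grey) and with the replicate number as a block (red), filled where the FDR was below 0.25. With the block, 6 genes are filled in NeuN+ and 2 in NeuN– nuclei, and without it none is.

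The calls in neurons depended on the model more than the sizes did. Over 24 alternatives, the neuronal difference of Ptgs2 stayed between 1.73 and 3.05, that of Ptgs1 between 1.75 and 2.29, that of Hpgd between 1.73 and 2.05, and that of Ptger4 between 1.14 and 1.37. An FDR below 0.25 was reached in 11, 10, 8 and 2 of these alternatives. The block fit had 3 residual and 48.0 prior degrees of freedom, so its small p-values lean on the spread of all genes.

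**Figure D4:**
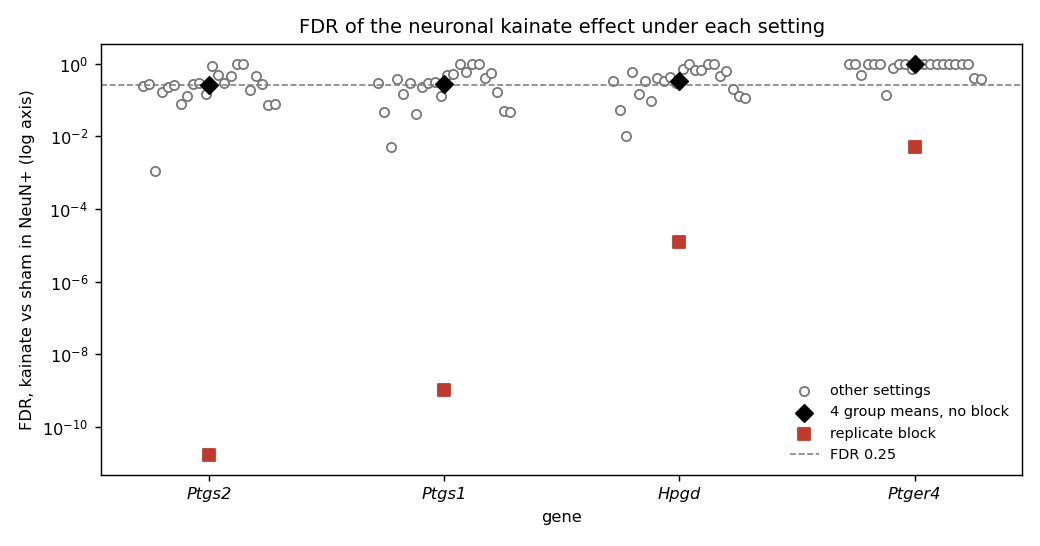
FDR (log axis) of the kainate effect in NeuN+ nuclei for Ptgs2, Ptgs1, Hpgd and Ptger4, with the fit of 4 group means as a diamond, the replicate block as a square, every other setting as a circle, and the dashed line at 0.25. The diamonds of Ptgs2, Ptgs1 and Hpgd lie just above the line at 0.255, 0.282 and 0.334, and the squares lie far below it.

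The second question was how the pathway divided between neurons and glia over both treatments. Of the 10 members, 4 were higher and 3 lower in NeuN+ nuclei at FDR below 0.25, against 16.8% and 20.4% of all genes, or 37.2% in either direction. With the replicate block, 5 were higher and 3 lower, against 26.5% and 30.9% of all genes, or 57.4% in either direction, with Ptger2 added (0.90, FDR 0.0275). With the pool as a block, which pairs the fractions of the same mice, Ptger2 was not called (0.63, FDR 0.277). The median of all genes lay at -0.47 on this scale, so a member at 0 sits above it.

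The cyclooxygenases went opposite ways. Ptgs2 was higher in neurons by 3.15 ± 0.48 (SE, 6 against 5 libraries, FDR 0.000291), and every neuron library lay above every glia library, as for 8.92% of all genes. Compared within the same pool, NeuN+ nuclei held 23.2, 11.1 and 4.41 times the Ptgs2 CPM of NeuN– nuclei after kainate, and 17.0 and 3.84 times in sham. Ptgs1 was lower in neurons, with a difference of -2.56 ± 0.35 (SE, FDR 0.000126). Within a pool, NeuN– nuclei held 3.58, 3.91 and 1.34 times the Ptgs1 CPM of NeuN+ nuclei after kainate and 18.8 and 5.66 times in sham. Kainate neurons replicate 3, at 46.8 CPM, was the only neuron library above a glia library for Ptgs1, namely sham glia replicate 3 at 45.1 CPM.

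Hpgd was lower in neurons, with a difference of -2.36 ± 0.33 (SE, FDR 0.000165), and so was Ptges, with -1.05 ± 0.38 (SE, FDR 0.0773). The receptors Ptger3 and Ptger4 were higher in neurons, by 1.24 ± 0.38 (SE, FDR 0.0351) and 1.14 ± 0.37 (SE, FDR 0.0498). Ptger1 was higher by 0.80 ± 0.38 (SE, FDR 0.185), with the same uncertainty over strand, and this call was lost in 11 of 24 alternatives. Ptger2, Ptges2 and Ptges3 differed by 0.25, 0.11 and -0.33 and did not pass. Scaling by library size alone moved the median of all genes to -0.98, and Ptger1, Ptger3 and Ptger4 then did not pass (0.39, 0.60 and 0.54), while Ptges2 was lower in neurons (-0.25, FDR 0.172).

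**Figure D5:**
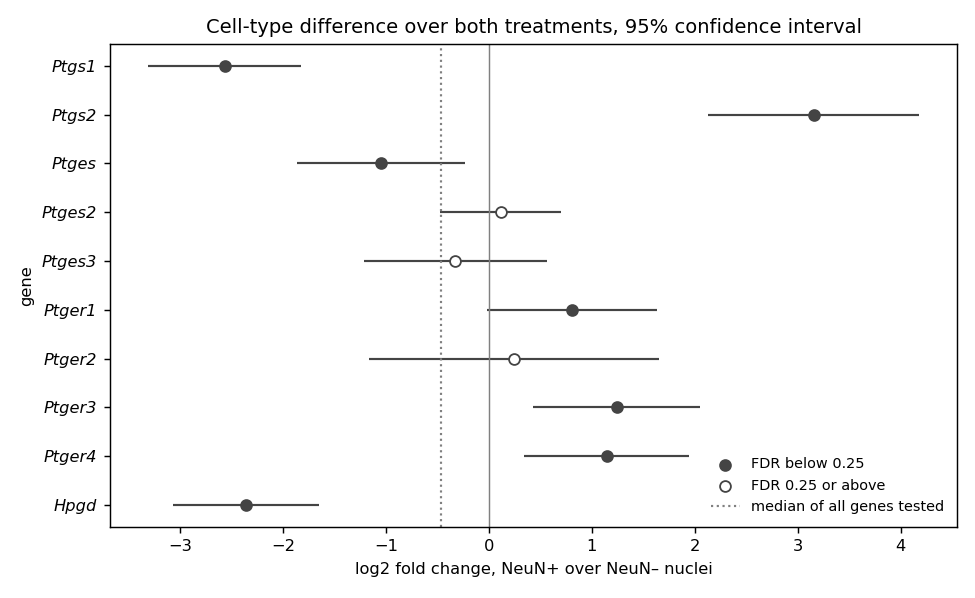
Log2 fold change of NeuN+ over NeuN– nuclei for each gene with its 95% confidence interval, filled where the FDR was below 0.25, with the median of all genes tested as a dotted line at -0.47. Ptgs2 at 3.15 lies farthest to the right, and Ptgs1 at -2.56 and Hpgd at -2.36 lie farthest to the left.

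Levels were compared between members as CPM per kilobase of exon. In sham neurons, Ptges3 was first at 13.6 ± 5.66 (SD, n = 3), followed by Ptgs2 at 9.45 ± 3.01 and Ptges2 at 7.41 ± 1.85, and these neighbours lay within 1 SD of each other. Ptgs1 came next at 2.03 ± 0.26, apart from Ptges2 by more than their SDs, and the other members lay between 0.345 and 1.19. Per kilobase of the longest coding transcript, Ptger3 and Ptger4 stood higher, at 2.14 and 2.18 in place of 1.19 and 1.08, and Ptgs1 at 2.75. In kainate neurons, Ptgs2 was first at 61.1 ± 51.7, then Ptges3 at 17.4 ± 5.74, Ptgs1 at 8.55 ± 3.18 and Ptges2 at 7.43 ± 1.80. Each of these 4 overlapped its neighbour within their SDs, although every Ptgs2 value lay above every Ptges3 value. In kainate glia, Ptgs1 was first at 22.3 ± 5.86, then Ptges3 at 18.6 ± 10.6, Hpgd at 11.5 ± 4.03 and Ptges2 at 7.14 ± 1.76, with Ptgs2 in place 5 at 4.85 ± 1.49. Neighbours in this order again overlapped within their SDs. In sham glia, Ptgs1 was first at 27.3 ± 22.2 (SD, n = 2), and the same 4 genes held the first 4 places, within overlapping spreads.

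The other 66 genes of the pathway were counted from a fixed list, chosen with earlier results of these data known, and all were tested. In neurons, 1 was called higher and 0 lower without the block (2 higher and 0 lower at an unadjusted p below 0.05, edgeR), and 5 higher and 4 lower with it. Over all genes, 0.157% were called higher without the block, and 3.19% higher and 1.9% lower with it. In glia, 2 were called higher and 0 lower without the block (8 higher and 0 lower at an unadjusted p below 0.05), and 10 higher and 5 lower with it, beside 0.0933% of all genes called higher without the block and 2.93% higher and 2.86% lower with it. Their median difference was -0.0038 in neurons and 0.056 in glia.

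Of the 13 genes listed for control of cyclooxygenase, 1 was called higher in neurons and 2 in glia without the block, against 0.157% and 0.0933% of all genes. With the block, 4 rose in neurons and 8 in glia, against 3.19% and 2.93% of all genes, and 0 fell in either fit. The list was chosen with earlier results of these data known. The study had already listed Zfp36, Sphk1, Cebpd, Cebpb and Il1r1 as upregulated in glia. These shares are thus not independent support. Zfp36 encodes a protein that binds and destabilises inflammatory mRNAs. It was called in neurons without the block (2.27 ± 0.47, SE, FDR 0.204), at 8.04 to 20.1 CPM after kainate and at 2.28 to 3.59 CPM in sham. In glia it was at 152 to 280 CPM against 17.9 and 44.2 CPM, with a difference of 2.67 (FDR 0.263, and 1.39e-12 with the block). Sphk1, a kinase that makes sphingosine-1-phosphate, rose in glia by 3.44 ± 0.63 (SE, FDR 0.142), from 3.96 and 13.98 CPM in sham to 79.2 to 133 CPM. Its neuronal difference was 2.33 with an FDR of 0.255. Cebpd, a transcription factor of the C/EBP family, rose in glia by 2.82 ± 0.51 (SE, FDR 0.142), from 20.5 and 34.3 CPM in sham to 122 to 293 CPM. Its neuronal difference was -0.24 with an FDR of 1.

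The enzymes that free arachidonic acid showed no call without the block. Of these 18 genes, 0 rose and 2 fell in neurons with the block, and 0 rose and 3 fell in glia. Of all genes, 1.9% fell in neurons and 2.86% in glia in that fit. Faah, a hydrolase that breaks down the endocannabinoid anandamide, had the smallest p of the list in neurons. It was at 189 to 447 CPM after kainate and at 458 to 702 CPM in sham, with a difference of -0.77 ± 0.41 (SE, FDR 1 without and 0.0021 with the block). In glia the smallest p belonged to the phospholipase Pla2g16 (-1.14, FDR 1 without and 0.0238 with the block).

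Among the 13 other prostanoid synthases and reductases, 1 fell in neurons and 2 fell in glia with the block, against 1.9% and 2.86% of all genes. The carbonyl reductase gene Cbr3 had the smallest p in neurons (-1.35, FDR 1 without and 0.0535 with the block). In glia it was Ptgds, the prostaglandin D2 synthase (-1.32, FDR 1 without and 0.0712 with the block), whose level differed between the sham libraries, at 1405 and 12536 CPM. Of the 6 other prostanoid receptor genes, Ptgfrn, which encodes a partner protein of the prostaglandin F receptor, had the smallest p in both cell types, with differences of 0.59 (FDR 1 without and 0.386 with the block) in neurons and 1.01 (FDR 1 without and 0.0705 with the block) in glia. Over both treatments, 0 of the 6 were higher and 4 were lower in NeuN+ nuclei in both fits, where 16.8% of all genes were higher and 20.4% lower without the block, and 26.5% and 30.9% with it.

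Of the 4 prostaglandin transporters, Slco3a1 had the smallest p in neurons (0.56, FDR 1 without and 0.0591 with the block) and Slco2a1 in glia (0.53, FDR 1 without and 0.0967 with the block). Of the 12 genes of the lipoxygenase and leukotriene branch, 1 fell in neurons and 0 changed in glia with the block, where 1.9% and 2.86% of all genes fell. Ltc4s, the leukotriene C4 synthase, had the smallest p in neurons, at 0.854 to 1.02 CPM after kainate and 1.61 to 2.15 CPM in sham (-0.96, FDR 1 without and 0.227 with the block). In glia it was Alox5ap, the activating protein of 5-lipoxygenase (-0.88, FDR 1 without and 0.908 with the block).

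The genes whose log2 CPM followed each of the 3 leading members most closely over the 11 libraries were looked for among 18571 genes, chosen after the values were seen and as a description. For Ptgs2 the first 5 were Gm34583, Rem2, Dyrk3, Pcdh8 and Bdnf, with Pearson correlations of 0.953 to 0.968. For Ptgs1 they were Tgfbr2, Itgav, Spry4, Gm25082 and Hr, at 0.962 to 0.974. For Hpgd they were Pros1, Smad7, Fam196a, 9330188P03Rik and Ucp2, at 0.969 to 0.991. These libraries fall into groups by cell type and treatment, which all of these genes share. Of the 15 genes, Pros1, which encodes protein S, was called for kainate in neurons without the block (2.79, FDR 0.153).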

How the data were processed

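The deposited values are raw counts of uniquely mapping reads per gene. The authors trimmed reads with Trim Galore 0.4.3, aligned them with Rsubread and counted them with featureCounts on GENCODE M16 (mm10), without a strand-specific kit (SMART-Seq v4). The protocol label names the right hippocampus, while titles and methods name the left, which is used here. The 11 bisulfite samples were not analysed here.

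The 105 genes without a symbol were dropped. Of the rest, 40714 genes passed filterByExpr, with its minimum count of 10 and total of 15, and edgeR's quasi-likelihood model was fitted to 4 group means over all 11 libraries, where the study analysed the cell types separately. P-values were adjusted over all genes by the Benjamini-Hochberg method, and calls used FDR below 0.25. The biological coefficient of variation common to all genes was 0.600, and 0.251 in the block fit. DESeq2's Wald test was an alternative. The tools were edgeR 4.0.16 and DESeq2 1.42.0 in R 4.3.3. The fits were run on simulated libraries without replicate effects. This checked the size of planted differences and not the FDR of the block fit.

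The labels do not say what a replicate number stands for. According to the paper, the mRNA libraries were sequenced in pools on different instruments, with single or paired reads. The sequencing run was not part of any fit, and its part in the likeness of same-numbered libraries was not tested. Deviations from the group means of same-numbered kainate and sham libraries correlated at 0.643, 0.161 and 0.491 in neurons and at 0.760 and 0.787 in glia over 40714 genes, so the numbers were taken as pairs. Libraries with different numbers ran from -0.600 to 0.418 in neurons, where kainate 2 with sham 3 (0.166) and kainate 3 with sham 2 (0.418) were positive too. Every pairing of replicate 1 with replicate 2 or 3 was negative there, from -0.600 to -0.215. With 2 sham glia libraries the glial deviations mirror each other. The pairing thus rests on the numbers and a correlation over 0.1 in each pair, and the blocked value is given where it changes a call.

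The members and lists were chosen with earlier results of these data known. All 10 members are named. Other pathway genes are named where called without the block or where their p was the smallest of their list. The planned search for genes that follow a called member named none, and was made for members with p below 0.001 instead. Coordinates and exon lengths are those of GENCODE M21 on GRCm38, and promoters are from RefSeq. The number of pools limits the precision.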

Additional observations from a re-analysis of the deposited data

How the results depend on the processing

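For kainate against sham in neurons, 0 of 10 members were called in the fit of 4 group means. The count was 1 with DESeq2's size factors or no filter on low counts, 2 with library size only, edgeR's newer quasi-likelihood method or both low-input libraries left out, 3 with DESeq2's Wald test or a filter at 1 CPM in 3 libraries, 4 in a fit of each cell type alone and 6 with the replicate block. Leaving out 1 library gave 0 to 3, with 3 without sham glia replicate 1 or 3, 2 without kainate glia replicate 3, and 1 without kainate glia replicate 1, none of which enters this comparison except through the shared spread and scaling. The genes called higher over all tested moved as well, from 64 to 67, 64, 174, 123, 90, 292, 122, 324 and 1299 in the order of the alternatives named, and to 153, 160, 96 and 86 in that of the libraries. They dropped to 30, 13 and 24 without kainate neuron replicate 1, 2 or 3, to 45, 5 and 5 without sham neuron replicate 1, 2 or 3, to 25 without kainate glia replicate 2, to 40 with low RNA input as a covariate and to 8 at an FDR below 0.05. In glia the count was 0, 2 with the replicate block and 0 to 2 with 1 library left out (2 without sham glia replicate 3, which leaves 1 sham library that is assumed to vary like the other groups, with 2359 genes called higher in place of 38). For the difference of the effects it was 0, and 1 with the replicate block. The cause of these changes was not tested. Scaling by library size only turned Ptges2 in NeuN+ against NeuN– nuclei from 0.11 to -0.25. Over the differences and levels of single members under their alternatives, 933 kept their call and direction or stayed within the spread, 42 gained a call, 14 lost one (11 of them Ptger1 in NeuN+ against NeuN– nuclei) and 1 reversed. With the length of the longest coding transcript, 10 levels per kilobase moved beyond the spread, for Ptgs1, Ptger3 and Ptger4.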
